A study of Mus musculus with 47 samples.

Results

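Potassium channel genes were followed in the hippocampus of young and old mice given vehicle or platelet factor 4 (PF4), a protein that platelets release. The genes were the rows of the count table whose symbols have the form of a potassium channel name (Kcn, a family letter or letters, a number). Of 92 such symbols, 16 had a summed count below 470 over the 47 libraries, and Kcne2 and Kcnj13, whose transcripts are abundant in the choroid plexus, were left out, which gave 74 of the 35486 genes in the table. The last genes inside the minimum were Kcnh8 with 506 reads and Kcng3 with 518, and the first outside it were Kcnq1 with 441 and Kcnk5 with 293. The mice were male C57BL/6J without a transgene, and drug and vehicle were injected intraperitoneally. The groups were Young Veh (n = 13), Young PF4 (n = 12), Old Veh (n = 12) and Old PF4 (n = 10), where Veh is vehicle. Young mice were 3.75 to 5.26 months old and old mice 17.4 to 20.2 months old. Each library came from homogenized whole hippocampus, so that fewer cells of a type and less RNA per cell cannot be told apart.

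Potassium channels let potassium leave the cell and so return the membrane towards rest after a spike, set the resting potential and fix how readily a neuron fires. Voltage-gated subunits (Kcna, Kcnb, Kcnc, Kcnd, Kcnh and Kcnq) open on depolarization, and modifier subunits (Kcnf, Kcng, Kcns and Kcnv) form no working channel alone but change the channels they join. Inward rectifiers (Kcnj) pass current mainly near rest, several of them under the control of G proteins or ATP, and Kcnk subunits carry leak currents. Kcnma, Kcnn, Kcnt and Kcnu channels answer to calcium, sodium or pH inside the cell, and auxiliary subunits (Kcnab, Kcnip, Kcne and Kcnmb) form no pore but bind those that do. The 74 genes held 27 voltage-gated, 9 modifier, 11 inward rectifier, 9 Kcnk, 7 ion-activated and 11 auxiliary members.

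The results turn on 5 genes. For 4 of them the coding bases of the selectivity filter, the stretch that lets potassium pass and holds back sodium, are shown because it is the part these genes of different families share. The signature was found by script in GENCODE transcripts of GRCm38. Each line gives 45 bases of coding sequence, 5′ to 3′ on the gene's strand, and the capitals mark the 15 bases that code for the filter signature.
Kcnd3: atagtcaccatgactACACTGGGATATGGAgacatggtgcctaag
Kcnv1: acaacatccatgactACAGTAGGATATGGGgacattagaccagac
Kcnc2: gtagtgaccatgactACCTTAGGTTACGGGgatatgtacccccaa
Kcnj6: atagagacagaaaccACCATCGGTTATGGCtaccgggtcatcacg
The Kcnd3 stretch crosses an exon junction, with chr3:105459899-105459921 in exon 1 of 7 and chr3:105658611-105658632 in exon 2, on the plus strand. The Kcnv1 stretch lies in exon 3 of 3 at chr15:45109274-45109318 on the minus strand, and the Kcnc2 stretch in exon 3 of 5 at chr10:112456214-112456258 on the plus strand. The Kcnj6 stretch lies in exon 3 of 4 at chr16:94832762-94832806 on the minus strand. Between pairs of these 4 genes, from 3 (Kcnd3 and Kcnv1) to 6 (Kcnd3 and Kcnc2) of the 15 filter bases differed. Of the 74 genes, 52 held the signature at least once and 8 held 2 copies. These 8 were all Kcnk subunits, which have a pair of pore loops in each protein.

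Total counts ranged from 2242879 to 21112908 per library (median 10374007). The 8 libraries with under 5000000 counts were unevenly spread, with 1 in Young Veh, 2 in Young PF4, 4 in Old Veh and 1 in Old PF4. Old mice carry library numbers 1 to 23 and young mice 24 to 48 in the sample labels, so that age and library number cannot be told apart. Old Veh holds numbers 1 to 12 and Old PF4 13 to 23, so that in old mice treatment and library number cannot be told apart either. The test of whether the PF4 difference depended on age uses the same groups. Of the 7 neuron markers none was at 0, and their summed level was 6890 CPM (counts scaled to the size of the library) at the median in Young Veh and 7400 in Old Veh, with ranges of 6410 to 7590 and 6680 to 8550. Choroid plexus markers (10 genes) summed to a median of 1940 CPM in Young Veh (range 12.0 to 4260) and 47.1 in Old Veh (range 15.1 to 4260), and to medians of 2380 in Young PF4 and 65.9 in Old PF4. In Old Veh against Young Veh all 6 microglia markers had a log2 fold change above 0 (median 0.16, 1 called), with summed levels of 341 to 418 CPM in Young Veh and 366 to 499 in Old Veh. All 6 oligodendrocyte markers were also above 0 (median 0.09, 0 called, 1 at an unadjusted p under 0.05), with sums of 5540 to 6910 and 5340 to 8470 CPM. Of the 6 astrocyte markers 1 was called higher and 1 lower (median 0.02), with sums of 3220 to 3720 and 3510 to 4090 CPM. Of the 6 pericyte and smooth muscle markers 5 were below 0 (median -0.24), 1 was called higher and 2 were lower at an unadjusted p under 0.05, with sums of 130 to 203 and 123 to 216 CPM. None of the neuron, interneuron, oligodendrocyte precursor, endothelial or choroid plexus markers was called in edgeR, with 2, 1, 0, 0 and 0 of them at an unadjusted p under 0.05. Apart from fits with the choroid plexus score as a covariate, the part of these cell types in the differences of potassium channel genes was not tested. All 74 potassium channel genes passed the count filter, which 17778 genes passed, and 71 of them had reads in every library.

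Levels are first given as CPM per kilobase of exon, so that genes can be compared. The leading gene was Kcnab2, an auxiliary beta subunit of Kcna channels, at 87.2 ± 7.92 (SD, n = 47 libraries). Kcnk1, a leak channel subunit, followed at 52.7 ± 4.99. Kcnip2 and Kcnip4, calcium-binding partners of Kcnd channels, stood at 39.1 ± 6.01 and 23.2 ± 1.56, and Kcnd2, the main A-type subunit of pyramidal cell dendrites, at 23.4 ± 1.89. The levels of Kcnd2 and Kcnip4 differed by less than the spread between libraries. With the longest transcript in place of all exon bases, Kcnab2 (124) and Kcnk1 (52.7) still led, while Kcnd2 moved from the fourth place to place 11.

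**Figure D1:**
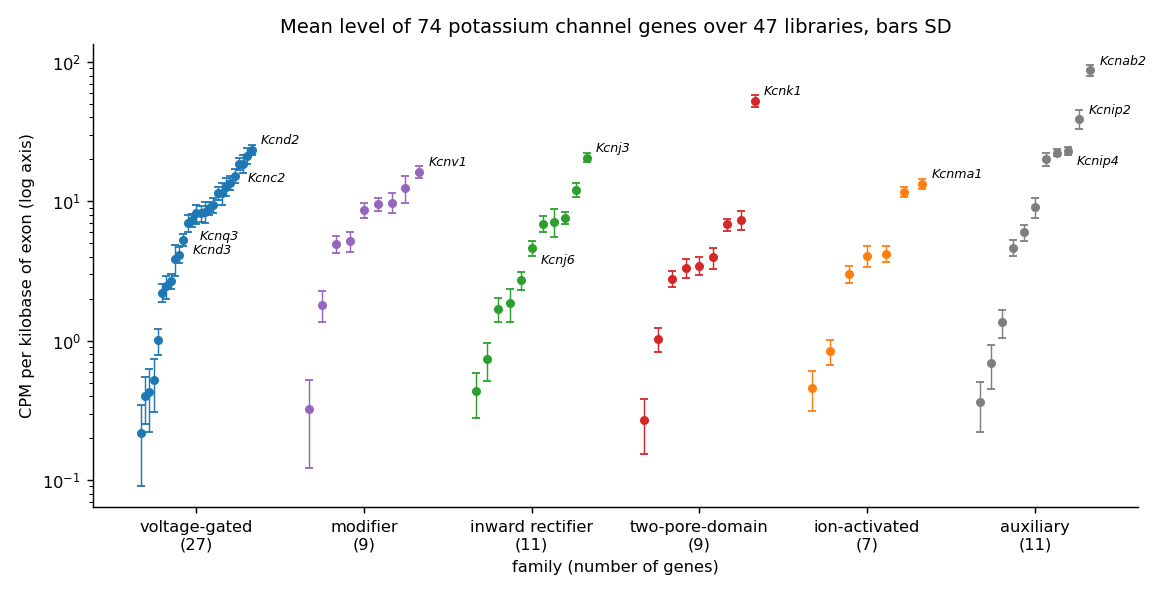
Each point is a potassium channel gene, placed by family, with its mean level over all 47 libraries in CPM per kilobase of exon on a log axis and bars of 1 SD. The auxiliary subunit Kcnab2 (87.2) and the leak channel Kcnk1 (52.7) stand highest, and the 5 genes called with age span 4.66 (Kcnj6) to 18.5 (Kcnc2).

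Of the pore-forming voltage-gated families, Kcnd was led by Kcnd2, Kcna by Kcna1 (a low-threshold axonal channel) at 21.3 ± 2.85 and Kcnh by Kcnh3 at 11.5 ± 2.06 CPM per kilobase. Kcnc4 at 18.7 ± 2.79 and Kcnc2 at 18.5 ± 1.79 differed by less than the spread between libraries. Kcnv1 led the modifiers at 16.3 ± 1.71, and Kcnj3, a G protein-gated subunit, led the inward rectifiers at 20.6 ± 1.48. Kcnma1, the large-conductance calcium-activated channel, stood at 13.4 ± 1.06, the highest of the ion-activated channels by exon length but not by longest transcript. In CPM, not corrected for length, 73 of the 74 genes averaged over 1, 54 over 10 and 14 over 100. The libraries carry no strand information, and 24 of the 74 genes share exon bases with another annotated gene. For 13 of these the other genes held over 10% as many reads. Among them were Kcnj3 (Gm26794, 1621 shared bases), Kcnip4 and Kcnj6 (Gm41505, 380 shared bases). Kcnh3 was another of the 13, but it shares only 1 exon base with Mcrs1.

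The comparison of Old Veh with Young Veh asks how these genes differ with age without drug. In it 5 potassium channel genes were higher in old mice and 0 were lower. The 5 were Kcnd3, Kcnv1, Kcnc2, Kcnq3 and Kcnj6, and each differed by 0.18 to 0.22 on the log2 scale. They make up 6.76% of the 74 genes, against 2.77% called among all 17778 genes tested (2.16% higher and 0.607% lower). At an unadjusted p under 0.05, 13 were higher and 3 lower (21.6% of the 74, against 15.2% of all genes). The median log2 fold change of the 74 genes was 0.01, against -0.01 over all genes tested.

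Kcnd3 encodes a pore subunit of A-type channels, which open and inactivate quickly below the spike threshold. Its level was 43.2 to 53.1 CPM in Young Veh (median 46.8) and 47.2 to 64.4 CPM in Old Veh (median 54.8). The groups overlapped, but 10 of the 12 Old Veh libraries lay above every Young Veh library. The log2 fold change, with its standard error (SE), was 0.21 ± 0.050 (edgeR adjusted p = 0.0105). Kcnd3 spans chr3:105452330-105674002 on the plus strand of GRCm38 and shares exon bases with Kcnd3os, which held 514 reads against 24152.

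Kcnv1, a modifier that joins Kcnb channels and alone passes no current, ranged from 57.5 to 78.2 CPM in Young Veh (median 70.1). In Old Veh it ranged from 72.0 to 91.3 CPM (median 79.7). All 12 Old Veh libraries were above the Young Veh median and 8 were above the highest Young Veh library. The log2 fold change was 0.20 (SE 0.051, edgeR adjusted p = 0.0221). The gene lies at chr15:45106284-45114920 on the minus strand, and no other annotated gene overlaps it.

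Kcnc2 forms channels that repolarize spikes within a short time and are known from fast-firing interneurons. It ranged from 112 to 139 CPM in Young Veh (median 127) and from 118 to 158 CPM in Old Veh (median 146). Of the Old Veh libraries 9 lay above all Young Veh libraries, and 1 lay below the Young Veh median. The log2 fold change was 0.18 (SE 0.048, edgeR adjusted p = 0.0262). Kcnc2 lies at chr10:112271121-112467024 on the plus strand with no overlapping gene. The summed interneuron markers (6 genes) had medians of 822 CPM in Young Veh and 821 CPM in Old Veh. By gene, 2 of the 6 had a log2 fold change above 0 (median -0.07, lowest -0.21), and 1 was lower at an unadjusted p under 0.05. The part of these markers in the Kcnc2 difference was not tested.

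Kcnq3 is a subunit of the M-current, a slow current that damps repeated firing. It ranged from 91.2 to 125 CPM in Young Veh (median 103) and from 104 to 137 CPM in Old Veh (median 117). A single high Young Veh library left only 4 Old Veh libraries above the whole group, while all 12 were above its median. The log2 fold change was 0.19 (SE 0.054, edgeR adjusted p = 0.0355). Kcnq3 lies at chr15:65986387-66286642 on the minus strand.

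Kcnj6 encodes a G protein-gated inward rectifier subunit that carries slow inhibitory currents, usually together with Kcnj3. It ranged from 24.9 to 40.6 CPM in Young Veh (median 35.2) and from 34.4 to 47.9 CPM in Old Veh (median 38.9). The groups overlapped, with 3 Old Veh libraries above all Young Veh libraries, 6 of 13 Young Veh libraries below all Old Veh libraries and 11 of 12 Old Veh libraries above the Young Veh median. The log2 fold change was 0.22 (SE 0.064, edgeR adjusted p = 0.0442). The gene lies at chr16:94748636-94997701 on the minus strand and shares exon bases with Gm41505, which held 1742 reads against 16721.

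**Figure D2:**
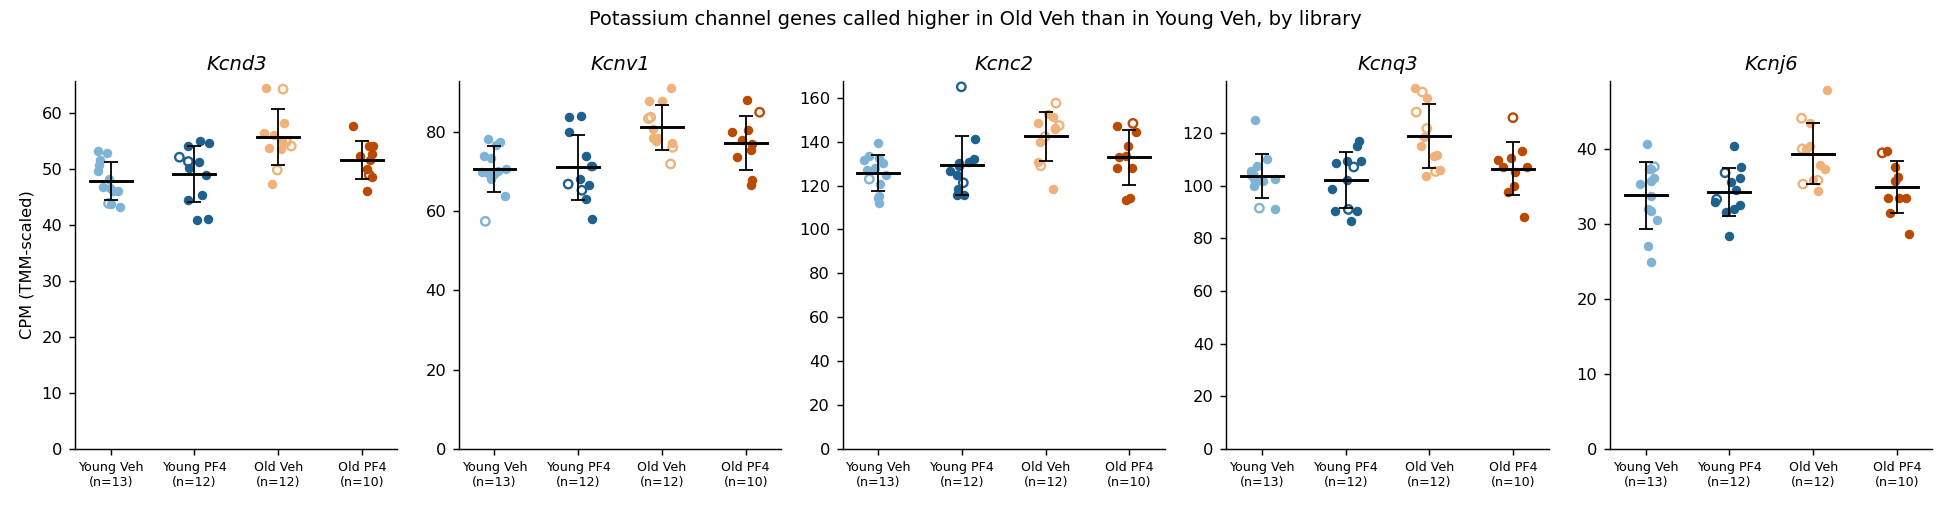
Level of the 5 genes called in Old Veh against Young Veh, in CPM on axes that start at 0, with a point per library, a line at the group mean and bars of 1 SD. Open points are the 8 libraries under 5000000 counts. The Old Veh mean is the highest in each panel and the Old PF4 mean lies between it and those of the young groups. The genes were chosen because Old Veh was above Young Veh, which favours this order, and no comparison of PF4 with vehicle called any of them.

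These calls did not hold under every setting. Without the 8 libraries under 5000000 counts, edgeR called 0 of the 74 genes and 176 genes in all, with log2 fold changes of the 5 genes between 0.16 (Kcnq3) and 0.24 (Kcnj6) and adjusted p from 0.066 (Kcnd3) to 0.195 (Kcnq3). With the choroid plexus marker score of each library as a covariate, Kcnd3 alone stayed called (log2 fold change 0.21, edgeR adjusted p = 0.0215), and the others had log2 fold changes of 0.15 to 0.19. That score was lower in Old Veh than in Young Veh (means 2.17 and 4.17 log2 CPM, two-sided permutation test with 100000 resamples, p = 0.0289). With library number as a covariate 0 genes were called, of the 74 and of all genes. There the log2 fold changes were 0.32 for Kcnd3, 0.33 for Kcnj6, 0.22 for Kcnq3, 0.13 for Kcnv1 and 0.13 for Kcnc2, with SE of 0.10 to 0.14 in place of 0.048 to 0.064. The part of the choroid plexus markers and of library number in the 5 differences was not tested beyond these fits.

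**Figure D3:**
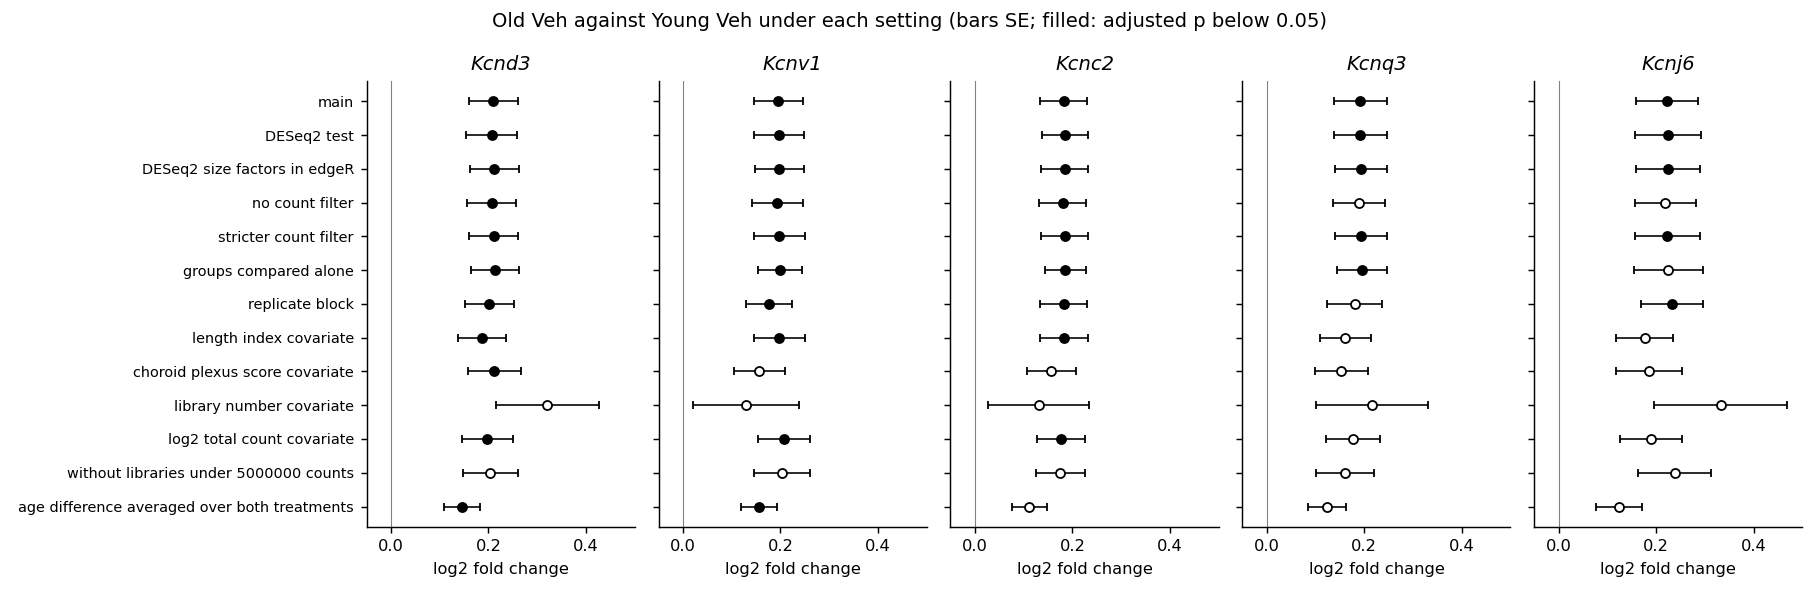
Log2 fold change of Old Veh over Young Veh for the 5 called genes under each setting, with bars of 1 standard error and filled points where the adjusted p was below 0.05. Each estimate is above 0, and Kcnd3 is filled in the main analysis and 10 of the 12 alternatives, and Kcnq3 and Kcnj6 in the main analysis and 4 of the 12.

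The next genes by p were Kcnq5, a further M-current subunit, with a log2 fold change of 0.23 (SE 0.070, edgeR adjusted p = 0.0543), and Kcnt2, a sodium-activated channel, with 0.21 (SE 0.066, adjusted p = 0.0599). DESeq2 called both beside the 5. Kcnk1 had the smallest p among genes with a lower mean in Old Veh. It ranged from 112 to 145 CPM in Young Veh (median 121) and from 95.8 to 124 CPM in Old Veh (median 114), a log2 fold change of -0.14 (SE 0.051, adjusted p = 0.14). Kcnk6, singled out after its values were seen because it had the largest fold change of the 74 genes, had a log2 fold change of 0.57 with a wide error (SE 0.21, adjusted p = 0.151). It was near the count minimum, with medians of 0.862 CPM in Young Veh and 1.57 CPM in Old Veh.

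The genes with the highest levels mostly differed little with age in vehicle mice. Kcnab2 ranged from 390 to 538 CPM in Young Veh (median 487) and from 454 to 569 CPM in Old Veh (median 508), a log2 fold change of 0.07 (SE 0.053, edgeR adjusted p = 0.544). Kcnd2 ranged from 104 to 133 CPM and from 112 to 147 CPM (medians 122 and 125), a log2 fold change of 0.07 (adjusted p = 0.466). The ranges of both genes overlapped. The Kcnd partners Kcnip2 and Kcnip4 had log2 fold changes of 0.01 (SE 0.089) and 0.02 (SE 0.041). Kcna1 had 0.12 (SE 0.074), Kcnc4 -0.09 (SE 0.089) and Kcnh3 -0.11 (SE 0.11), none past the threshold. Kcnma1 ranged from 184 to 250 CPM in Young Veh (median 221) and from 208 to 265 CPM in Old Veh (median 244), with a log2 fold change of 0.11 (SE 0.044, unadjusted p = 0.0152, adjusted p = 0.186). Kcnj3, the partner of Kcnj6, had 0.07 (SE 0.041), with medians of 106 CPM in Young Veh and 108 CPM in Old Veh.

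By family, 3 of 27 voltage-gated genes were called (median log2 fold change 0.07), 1 of 9 modifiers (median -0.08) and 1 of 11 inward rectifiers (median 0.01), where 2.77% of all genes were called. None of the 9 Kcnk, 7 ion-activated or 11 auxiliary genes passed the test in edgeR. At an unadjusted p under 0.05 there were 3, 2 and 1 of them, where 15.2% of all genes were, and DESeq2 called 1 of these, the ion-activated Kcnt2. Besides Kcnv1, the other modifiers with an unadjusted p under 0.05 were both lower in Old Veh, Kcns3 with a log2 fold change of -0.16 (unadjusted p = 0.045, adjusted p = 0.315) and Kcng4 with -0.25 (unadjusted p = 0.0494, adjusted p = 0.328).

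The age difference was also read by transcript length. Of the 27 potassium channel genes with a longest transcript of 4594 bases or more, 22 had a log2 fold change above 0 (median 0.10) and 3 were called (Kcnd3, Kcnc2 and Kcnq3). Of the other 47 genes 20 were above 0 (median -0.02) and 2 were called. The called genes were 11.1% of the 27 and 4.26% of the 47, against 2.77% of all genes of any length. Over all 4418 tested genes with a longest transcript of 4594 bases or more, 58.3% were above 0, the median was 0.02 and 6.13% were called. The difference in length index (mean centred log2 CPM of long minus short transcripts) between Old Veh and Young Veh was 0.0565 (permutation test, p = 0.164). Young Veh replicate 4 stood apart at -0.348 (next lowest of its group -0.077). The medians of the index were 0.0088 in Young Veh and 0.042 in Old Veh. With that index as a covariate Kcnd3, Kcnv1 and Kcnc2 stayed called, with log2 fold changes of 0.19, 0.20 and 0.18, Kcnq3 (0.16, edgeR adjusted p = 0.0559) and Kcnj6 (0.18, adjusted p = 0.0672) did not, and Kcnh2 was called lower.

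Proteins that bind potassium channels were read from a list of 20 partners, of which 18 were tested. In Old Veh against Young Veh, 1 was called (5.56%, against 2.77% of all genes), Ank3, the ankyrin that anchors Kcnq3 at the axon initial segment, with a log2 fold change of 0.15 (SE 0.040, edgeR adjusted p = 0.0225). Cntnap2, which clusters Kcna channels beside the node of Ranvier, had 0.20 (SE 0.063, adjusted p = 0.0766). Dpp10, also on the list, was lower in Old Veh, with -0.22 (SE 0.10, unadjusted p = 0.0329, edgeR adjusted p = 0.271). At an unadjusted p under 0.05, 2 of the 18 were higher and 1 lower (16.7%, against 15.2% of all genes). The median of the 18 was 0.03. In the other 4 comparisons edgeR called 0 of the 18. At an unadjusted p under 0.05 there were 3 of the 18 in Old PF4 against Young PF4 (16.7%, against 8.27% of all genes), 1 in Old PF4 against Old Veh (5.56%, against 6.20%), and 0 in Young PF4 against Young Veh and in the test of whether the PF4 difference depended on age (against 1.20% and 3.98%).

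Old PF4 and Young PF4 mice give the age comparison in other animals, since they share no library with the vehicle groups. None of the 74 genes was called there by edgeR or DESeq2, against 0.332% of all genes in edgeR (0.304% higher and 0.0281% lower). Of the 74, 4 had an unadjusted p under 0.05 (5.41%, against 8.27% of all genes). Each of the 5 genes called in vehicle mice had a positive log2 fold change. That of Kcnd3 was 0.08 (95% interval -0.03 to 0.19), that of Kcnv1 0.11 (0.01 to 0.22), that of Kcnc2 0.04 (-0.06 to 0.14), that of Kcnq3 0.06 (-0.06 to 0.17) and that of Kcnj6 0.03 (-0.11 to 0.16). The sign for Kcnj6 turned with the choroid plexus score as a covariate and that for Kcnc2 with library number. Kcnv1 was the only one of the 5 with an unadjusted p under 0.05 (p = 0.0414, edgeR adjusted p = 0.571), at 58.0 to 84.1 CPM in Young PF4 (median 69.9) and 66.7 to 88.3 CPM in Old PF4 (median 77.5). Those ranges overlapped, with 2 of 10 Old PF4 libraries above all Young PF4 libraries.

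The smallest p in this comparison was that of Kcnk13, a leak channel subunit known from microglia, at 7.85 to 15.7 CPM in Young PF4 (median 11.0) and 10.3 to 15.2 CPM in Old PF4 (median 12.8). Its log2 fold change was 0.26 (SE 0.10, edgeR adjusted p = 0.405). All 6 microglia markers had a positive log2 fold change in the same comparison (median 0.26, 2 of them called). All 6 oligodendrocyte markers were above 0 too (median 0.22, 0 called, 5 at an unadjusted p under 0.05), 1 of 6 astrocyte markers was called higher (median 0.05), and 5 of 6 pericyte and smooth muscle markers were below 0 (median -0.41, 0 called, 4 lower at an unadjusted p under 0.05). The part of these markers in the Kcnk13 value was not tested. Kcnk10, a stretch-sensitive leak channel, had a log2 fold change of 0.25 (SE 0.11, adjusted p = 0.496), with 5 of 10 Old PF4 libraries above all Young PF4 libraries. Kcnj3 had 0.09 (SE 0.044, adjusted p = 0.61). Of the 74 genes, 45 (60.8%) had the same sign of age difference in vehicle and PF4 mice, against 64.3% of all genes tested, and Spearman's rho across genes was 0.36 for the 74 and 0.43 for all, where genes are not independent replicates.

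**Figure D4:**
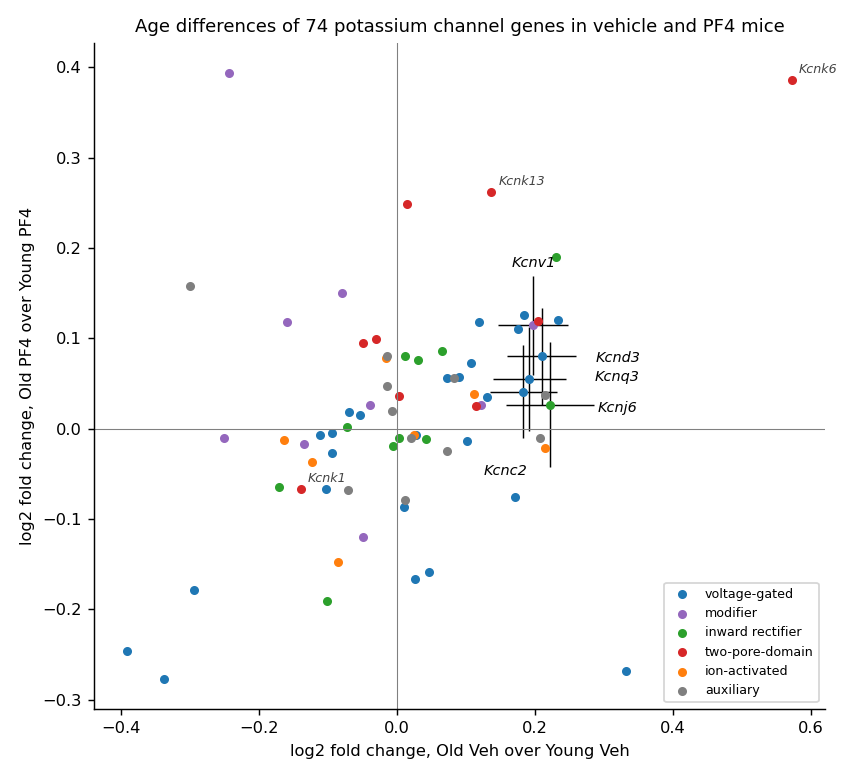
Log2 fold change with age of each of the 74 genes in vehicle mice (horizontal axis) and in PF4 mice (vertical axis), coloured by family, with standard error bars on the 5 called genes. The 5 called genes lie near 0.20 on the horizontal axis and between 0.03 (Kcnj6) and 0.11 (Kcnv1) on the vertical axis.

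The comparison of Old PF4 with Old Veh asks whether the drug changed these genes in old mice. It uses the same Old Veh libraries as the age comparison in vehicle mice, and treatment cannot be told apart from library number in it. Genes called with age because Old Veh was high are favoured to be lower in Old PF4 by that choice alone. No potassium channel gene was called in edgeR or DESeq2, against 0.0337% of all genes in edgeR (0.0112% higher and 0.0225% lower). Of the 74, 7 had an unadjusted p under 0.05, 2 higher and 5 lower (9.46% of the 74, against 6.20% of all genes). No cell type marker was called. Of 6 interneuron markers 4 were above 0 (median 0.13, 2 higher at an unadjusted p under 0.05). All 6 microglia (median 0.09) and all 6 oligodendrocyte markers (median 0.06) were above 0, and 0 of 6 pericyte and smooth muscle markers (median -0.15). The part of these markers in the PF4 differences was not tested. The median standard error of the 74 genes was 0.0905, so that a 95% interval at that error reaches 0.177 to either side. The length index was lower in Old PF4 than in Old Veh by a difference of -0.0641 (permutation test, p = 0.0568). Old PF4 replicate 8 stood apart at -0.228 (next lowest of its group -0.066). The medians of the index were 0.0074 in Old PF4 and 0.042 in Old Veh. Of the 27 genes with long transcripts, Kcnd3, Kcnc2 and Kcnq3 among them, 7 had a log2 fold change above 0 (median -0.06), against 1721 of the 4418 tested genes of that length (median -0.02), and the part of transcript length in these differences was not tested beyond the fits with the index as a covariate, which called 0 of the 74 genes in this comparison.

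Kcnq3 had the smallest p. In Old PF4 it ranged from 88.3 to 126 CPM (median 107), and 9 of 10 libraries lay below the Old Veh median of 117. Its log2 fold change was -0.16 (SE 0.058, unadjusted p = 0.00726, edgeR adjusted p = 0.542). Kcnj6 ranged from 28.6 to 39.7 CPM in Old PF4 (median 34.6), with 5 of 10 libraries below every Old Veh library and a log2 fold change of -0.18 (SE 0.069, adjusted p = 0.634).

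The other genes called with age in vehicle mice had log2 fold changes of -0.10 (Kcnd3, 95% interval -0.21 to 0.001), -0.08 (Kcnv1, -0.19 to 0.03) and -0.10 (Kcnc2, -0.21 to -0.002). Kcnt2, a sodium-activated channel, had a log2 fold change of -0.16 (adjusted p = 0.74) and its relative Kcnt1 had 0.21 (adjusted p = 0.792). Kcnk10 had 0.24 (adjusted p = 0.752), with medians of 8.41 CPM in Old Veh and 10.8 CPM in Old PF4 and 9 of 10 Old PF4 libraries above the Old Veh median.

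In young mice PF4 was compared with vehicle, and edgeR and DESeq2 both called 0 of the 74 genes and 0 genes in all. One potassium channel gene had an unadjusted p under 0.05, against 213 of all genes (1.20%). It was Kcne4, a small auxiliary subunit, at 1.33 to 3.48 CPM in Young Veh (median 2.05) and 0.164 to 3.13 CPM in Young PF4 (median 1.74), a log2 fold change of -0.43 with a wide error (SE 0.19, unadjusted p = 0.0305, edgeR adjusted p = 1). After it by p came Kcns3 (-0.15), Kcnk2 (-0.09), Kcnk13 (-0.14) and Kcnj14 (-0.29), each with an adjusted p of 1. The 5 genes called with age in vehicle mice had log2 fold changes between -0.02 (Kcnq3) and 0.04 (Kcnc2), with 95% intervals within -0.13 and 0.14.

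**Figure D5:**
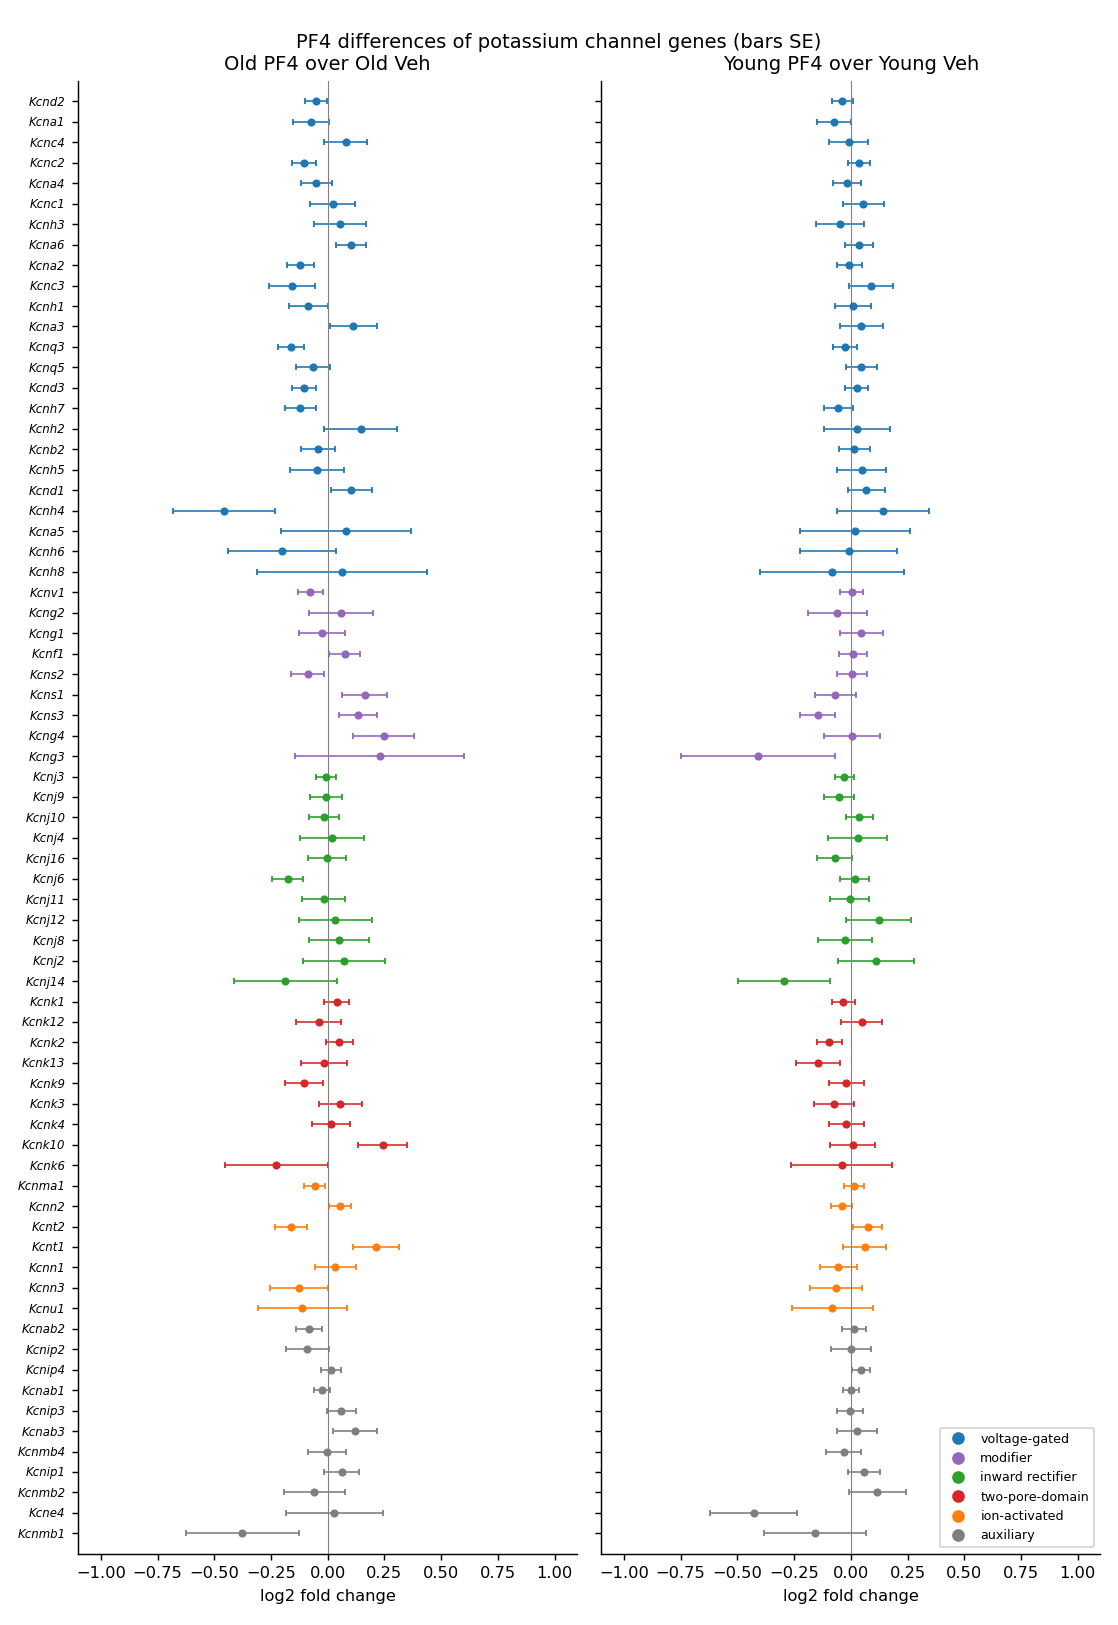
Log2 fold change of PF4 over vehicle in old mice (left) and young mice (right) for the potassium channel genes, ordered by family and by level within it, with bars of 1 standard error. No gene was called in either panel. The wide bars belong to genes near the count minimum, such as Kcnh8 and Kcng3.

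Whether the PF4 difference depended on age was tested as an interaction, which is also the difference between the age effects in PF4 and in vehicle mice. It called 0 genes in edgeR and in DESeq2, with 707 genes (3.98%) and 4 of the 74 at an unadjusted p under 0.05. Among these were Kcns3 (log2 difference 0.28, unadjusted p = 0.0181), Kcnt2 (-0.24, p = 0.0182) and Kcnj6 (-0.19, p = 0.0441), each with an edgeR adjusted p of 1. Kcnc2 came next (-0.14, unadjusted p = 0.0525). For the 5 genes called with age in vehicle mice, the intervals of the interaction ran from -0.27 to 0.01 (Kcnd3), -0.23 to 0.07 (Kcnv1), -0.28 to -0.002 (Kcnc2), -0.29 to 0.02 (Kcnq3) and -0.38 to -0.01 (Kcnj6). The intervals are a little narrower than the test allows, so that the interval of Kcnc2 does not reach 0 while its unadjusted p is over 0.05. The 5 genes were chosen by a high Old Veh against Young Veh, and the interaction subtracts that same difference in the same libraries. Values below 0 are therefore favoured by the choice of genes and are not separate evidence. After adjustment the age effects in vehicle and PF4 mice were not shown to differ for any of the 5, all with an edgeR adjusted p of 1.

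Channels are built from several subunits, so 3 ratios of a called gene to a partner were read in each library. They were chosen after the values were seen and carry no test. The log2 ratio of Kcnj6 to Kcnj3 reads had medians of -1.60 in Young Veh, -1.53 in Young PF4, -1.49 in Old Veh and -1.70 in Old PF4. That of Kcnd3 to Kcnd2 had medians of -1.28, -1.27, -1.17 and -1.24 in the same order. That of Kcnc2 to Kcnc1 had 0.10, 0.03, 0.30 and 0.04. The ranges of the 4 groups overlapped for each of the 3 ratios.

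Over the 47 libraries, with group means removed, Kcnk9 and Kcnj14 were among the 3 potassium channel genes whose log2 CPM was most like that of Kcnd3 (Spearman's rho 0.34 for each). For Kcnv1 the most alike were Kcnmb2 (rho 0.46), Kcnip4 (0.41) and Kcnj3 (0.40). Libraries share depth and tissue composition, so these are descriptions. Between pairs of the 5 called genes rho ran from -0.28 to 0.44, with a median of 0.12 against 0.10 over all pairs of the 74.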

How the data were processed

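Hippocampal RNA of 47 mice was made into cDNA by Smart-Seq2 and into unstranded Nextera XT libraries. Per the submitters' processing notes the authors used Trim Galore 0.3.7, STAR 2.5.3a, GRCm38 and DESeq2. The counter and annotation are not given in the sources used here. The values deposited by the authors are raw, unnormalized counts per gene, and their methods left out libraries of low coverage. Groups followed the treatment and age in the sample titles.

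Counts were read as deposited and tested with the quasi-likelihood test of edgeR 4.0.16 (R 4.3.3) in 1 fit of the 4 groups, with TMM, filterByExpr and Benjamini-Hochberg adjustment over 17778 genes, calls being at an adjusted p below 0.05. The standard error is the absolute log2 fold change over the square root of F, and 95% intervals are 1.96 standard errors to either side, an approximation narrower than the test. CPM are TMM-scaled, and log2 CPM used a prior count of 2. Log2 fold changes are Old minus Young or PF4 minus Veh. Library scores were compared between groups by two-sided permutation in SciPy 1.17.1. Lengths and positions came from GENCODE for GRCm38 and were found for all 74 genes. Each column is 1 mouse, and p-values measure the spread between mice. Total counts set the precision of genes with few reads.

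On simulated counts for Old Veh against Young Veh over 17771 genes, edgeR recovered 13.4% of 67 genes changed by 0.2, 61.2% of 67 changed by 0.4 and 90.9% of 66 changed by 0.8 on the log2 scale, with 5 other genes called. These counts were drawn independently for each gene, without differences in tissue composition or library order. They therefore do not give the error rate of the real comparison.

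The genes named are every gene called in a comparison, the 5 with the smallest p in each, the 5 with the highest level per kilobase, the leading member of each family, and those beside the count minimum. Kcnq5, Kcnk6, Kcng4, Kcnh2, Kcnk9, Kcnmb2, Kcnab1 and the ratio partners were named after their values were seen or by likeness. The members and lists were chosen with earlier results of these data known. Alternatives were DESeq2 1.42.0, its size factors, other filters, the groups alone, a replicate block, covariates, libraries left out and another gene length. Protein sequences were not used here, and some genes and a sequence that the rules select are not reported here.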

Additional observations from a re-analysis of the deposited data

How the results depend on the processing

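Over 5 comparisons the number of potassium channel genes called stayed within 1.5 times the reported number in 49 fits under the alternatives, and left it in 6. All 6 concern Old Veh against Young Veh, where 5 genes were called and 12 alternatives were fitted, so that 6 of those 12 left this range. There the number was 3 with no count filter (Kcnd3, Kcnc2 and Kcnv1), 1 with the choroid plexus score, 0 with library number, 3 with log2 total count (Kcnd3, Kcnc2 and Kcnv1), 0 without the libraries under 5000000 counts, and 3 for the age difference averaged over both treatments (Kcnq5, Kcnd3 and Kcnv1), an alternative chosen after seeing the data. In the fits without a count filter and without the shallow libraries, other numbers of genes or libraries entered the adjustment, and otherwise the cause was not tested. DESeq2, which differs in test, scaling and the genes it adjusts over, called 7. In the other 4 comparisons 0 were called under each alternative.

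With any single library left out, 3 to 7 genes were called in Old Veh against Young Veh. The number was 3 without Old Veh replicates 1, 2, 3 or 7 and without Young Veh replicates 2, 4 or 5. Kcnd3 and Kcnc2 stayed called in all 25 of these fits, Kcnv1 in 24, Kcnq3 in 16 and Kcnj6 in 11. Kcnv1 was lost without Old Veh replicate 1 (log2 fold change 0.18, edgeR adjusted p = 0.0507). The replicate numbers of the labels were not used to pair the mice. Between groups, 21 of 66 pairs with a shared number had deviations correlated above 0.1. Their median correlation was -0.006, against -0.015 for pairs with different numbers. These correlations cannot show how the mice were matched. The fit with a replicate block also called 5 genes in that comparison (Kcnd3, Kcnc2, Kcnv1, Kcnj6 and Kcnq5, without Kcnq3) and 0 in the others.

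Of the named genes' fold changes, 2 turned sign, both in Old PF4 against Young PF4: Kcnj6 with the choroid plexus score (-0.004) and Kcnc2 with library number (-0.001). Of the 5 genes with the highest levels, Kcnab2 and Kcnip4 moved by more than 1 SD with the longest transcript as the length, to 124 and 35.1 CPM per kilobase. Other levels moved too, as that of Kcnj6 from 4.66 to 9.81 and that of Kcnc2 from 18.5 to 26.2. In the main analysis of the 74 genes the median standard error was 0.083 to 0.091 in each group comparison and 0.12 for the interaction, which limits what can be detected.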
